A study of Mus musculus with 3 samples.

Results

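The effect of endoglin knockdown on gene expression in PDL-L2 cells exposed to BMP-2 was examined with 1 Affymetrix Mouse Genome 430 2.0 array of knocked-down cells against 1 array of control cells, out of 3 arrays in the series. PDL-L2 is a mouse cell line derived from the periodontal ligament, the connective tissue between tooth root and alveolar bone. The cells received either a pool of siRNAs against mouse endoglin (siENG) or a non-targeting pool (siCont) and, 48 h after transfection, recombinant human BMP-2 at 250 ng/ml for 12 h. A further siCont array, given vehicle for the same 12 h, is shown beside them as a second reading of cells with endoglin. Knocked-down cells given vehicle are not analysed here, so an effect of the knockdown by itself and an effect on the response to BMP-2 cannot be told apart. The knockdown was transient and partial, both arms were transfected, and a single siRNA pool was used. As each group is a single array, the differences described have no replicate check and no p-value.

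Endoglin is a cell-surface co-receptor of the TGF-β family. It binds ligands together with type I and type II receptor kinases, is best known from endothelial cells, and is also carried by mesenchymal stromal cells. BMP-2, a bone-inducing member of the family, acts through such kinases on Smad proteins, whose direct targets include the Id genes and the inhibitory Smads.

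Genes were read from the brightest probe set, and those with the higher of the siCont BMP-2 and siENG BMP-2 signals at or above the 75th percentile of all deposited signals, called the signal limit, were kept. This left 7128 of 18193 genes. Ratios of the siENG array over the siCont array, both with BMP-2, are given as relative log2 ratios, from which the median log2 ratio of 0.21 over the 23779 probe sets with a higher signal of at least 23 was subtracted. A relative log2 ratio of 1 is thus a doubling against the bulk of probe sets. In the lists for the response to low oxygen and glucose use 21 of 87 genes past the limit were higher at 2-fold in the knocked-down cells, among them Pdk1, Ero1a, Bnip3 and Ndrg1, and of the interferon-stimulated genes 9 of 23, among them Bst2. Of all genes kept 0.94% were. The lists were chosen with earlier results of these data known. Pdk1 and 7 of the 9 interferon-stimulated genes were past the limit on the siENG array only. Such genes had to be higher to be kept. The extracellular matrix gene Npnt, the inflammatory genes Ptgs2, Il6 and Cxcl1 and the connexin gene Gja1 were lower. No gene in the lists for the respiratory chain, the ribosome and DNA replication was at 2-fold, which is near the shares over all genes kept, 0.94% higher and 0.8% lower.

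The siENG array was the brighter one, with a 2% trimmed mean signal of 166, against 141 for vehicle and 143 for siCont BMP-2. All 18 hybridisation control probe sets, which read RNA added to each sample during labelling or hybridisation, were also brighter with siENG, by a median log2 ratio of 0.20. Subtracting the median removes this offset, and its part in single genes was not tested. The ratio of 3′ to 5′ signal for Gapdh was 0.758, 0.774 and 0.804 on the vehicle, siCont BMP-2 and siENG BMP-2 arrays. Robust SDs of the relative log2 ratio ran from 0.34 for probe sets of mean signal 156 to 228 down to 0.22 for the brightest. Genes kept through 1 bright array can have a lower mean signal and a larger SD. It was 0.39 for Pdk1 and Npnt, 0.42 for Maff and 0.49 for Ankrd37. Probe sets for Bacillus genes, absent from mouse RNA, did not exceed 13.1. Of the fibroblast marker genes, 7 of 11 matched were past the limit, among them Vim, Col1a1, Col1a2, Col3a1 and Postn. Pdgfra and Scx were below it. On the vehicle, siCont BMP-2 and siENG BMP-2 arrays Thy1 read 6.6, 12.6 and 1.1 and Aspn 0.8, 2.4 and 8.3, within the Bacillus range. The endothelial, epithelial and skeletal muscle markers had none past the limit, and their summed signals lay between 83.9 and 180 on the 3 arrays. Only S100a8 of 12 leukocyte markers passed, at signals of 104, 199 and 221 on the vehicle, siCont BMP-2 and siENG BMP-2 arrays.

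Endoglin itself was checked first. On the vehicle, siCont BMP-2 and siENG BMP-2 arrays the brightest Eng probe set read 286, 298.5 and 108, and the second 121, 120.5 and 45.3. The 2 control arrays lay within a few percent of each other, and the siENG array was far below both. The relative log2 ratio was -1.67 with the brightest probe set and -1.62 with the second, beside a robust SD of 0.34 at that brightness. As a linear ratio relative to the bulk, 0.31 of the Eng signal was left.

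At 2-fold or more, 67 genes were higher with siENG, which is 0.94% of the genes kept, and 57 were lower, or 0.8%. On signals as deposited, without the median subtracted, the split was 125 higher and 20 lower. At 1.5-fold the relative counts were 344 and 316, or 4.83% and 4.43%. With genes admitted from a signal of 23, they were 252 and 293 at 2-fold, or 2.32% and 2.7% of 10854 genes. Every one of the 67 higher genes was brighter on the siENG array than on both siCont arrays, a property shared by 74.1% of all 7128 genes. Of the 57 lower genes, 50 were dimmer than on both siCont arrays, against 12.8% of all genes. Of the 67 higher genes, 34 were past the signal limit on the siENG array only, and of the 57 lower genes 19 on the siCont BMP-2 array only. Such genes had to differ to be kept, so counts and medians over genes past the limit describe those genes and not whole lists. The 2-fold limit separates genes that hardly differ. Snhg12 at 1.007 and Fam117b at 1.011 lay just inside on the higher side, and Kdm3a at 0.999 and Sil1 at 0.998 just outside. On the lower side Dlx2 at -1.008 was just inside and Anp32a at the limit itself, and Sytl2 at -0.9995 and Pmaip1 at -0.996 were just outside.

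**Figure D1:**
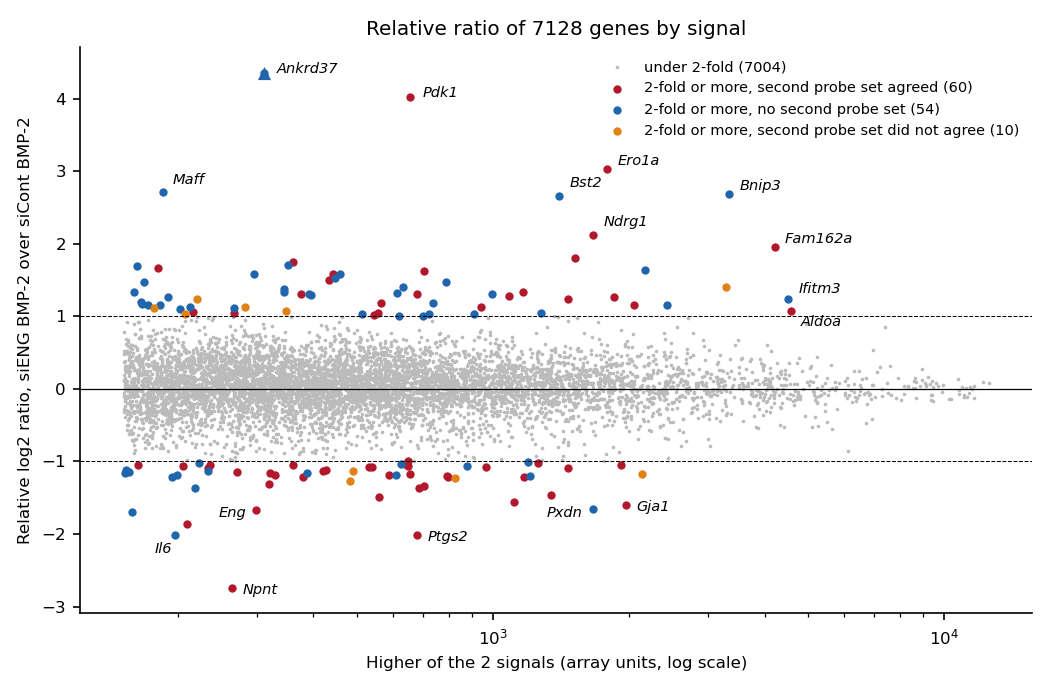
Relative log2 ratio of the siENG over the siCont array, both with BMP-2, for 7128 genes (vertical axis) against the higher of the 2 signals in array units (horizontal axis, log scale), 1 array each. Coloured points are the 67 genes at 2-fold or more higher and the 57 at 2-fold or more lower, by whether a second probe set agreed, dashed lines mark 2-fold, Ankrd37 is a triangle drawn at its lower bound, and Ankrd37 and Pdk1 lie highest and Npnt lowest.

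Agreement between probe sets of a gene was used as the check, since many genes are read by more than 1. A second probe set is another reading of the same RNA on the same array, and it covers error of the probes, not of the culture. Of the 4403 genes with a second probe set past 23, 24 were higher with the second moving the same way by at least 1.5-fold, or 0.545%, and 36 were lower, or 0.818%. Another 37 higher and 17 lower genes had no second probe set past 23. In 6 higher and 4 lower genes the second did not agree. Over the 4403 genes the ratios of the 2 probe sets differed with a robust SD of 0.27 on the log2 scale, and over the 2703 genes whose second probe set was also past the limit, with 0.21. The direction of the second followed the size of the first. Among genes under 0.25 on the log2 scale it was the same in 60.6% of those above 0 and 63.4% of those below, and among genes between 0.5 and 1 in 85.5% and 92.4%. At 2-fold it was the same in 28 of 30 higher and 38 of 40 lower genes. Of the 33 genes past 2-fold with at least 3 probe sets past 23, 30 had all of them on the same side of 0 and 21 had all past 1.5-fold.

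The largest ratios, those of Ankrd37, Pdk1 and Ero1a, belonged to genes of the response to low oxygen. Hypoxia-inducible factor (HIF) is a dimer of Hif1a or Epas1 with Arnt. When oxygen is plentiful, prolyl hydroxylases of the Egln family mark the alpha subunit for destruction through Vhl, and when it is scarce the dimer raises genes of glucose use, vessel growth and mitochondrial turnover, Egln1 among them. Over the 6 lists that cover oxygen sensing, glucose use, mitophagy, other hypoxia-responsive genes and collagen hydroxylation, 87 of 119 matched genes were past the limit. Of these, 21 were higher at 2-fold and 1, Loxl1, was lower, with a median relative log2 ratio of 0.30 against 0.04 for all 7128 genes.

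The factors and sensors differed among themselves. Hif1a had signals of 2334, 2209 and 2389 on the vehicle, siCont BMP-2 and siENG BMP-2 arrays, the order used for all triplets below. Its relative log2 ratio was -0.10, smaller than the robust SD of 0.22 for its signal. Arnt stood at -0.64 with the brightest probe set and -0.17 with the second, and Vhl at 0.43 and 0.39. The robust SDs for the brightest were 0.33 and 0.34. Epas1 was below the limit at signals of 61.2, 44.8 and 47.8. Egln1, a sensor that is itself a HIF target, read 203, 197 and 704 and was higher by 1.62, and by 2.24 with its second probe set. Egln2 stood at -0.13, and Egln3 was close to the Bacillus level on every array at 13.3, 7.2 and 11.3. Ankrd37, a small ankyrin repeat gene known as a HIF target, went from 14.1 and 4.3 on the siCont arrays to 311 with siENG. The siCont BMP-2 signal was within the range of Bacillus probe sets, so the ratio is given only as a bound, at least 20.5-fold relative to the bulk. Apart from Ankrd37 and Egln1, the other 6 members past the limit were under 2-fold. The median of the list was -0.11, and 0.10 on signals as deposited.

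Along glucose use, 4 of 14 genes past the limit were higher at 2-fold and 9 at 1.5-fold, with a median relative log2 ratio of 0.74. Slc2a1, the ubiquitous glucose transporter, read 806.5, 669 and 1856, and its 3 probe sets gave 1.26 to 1.53. Hk1 and Hk2, which phosphorylate glucose, stood at 0.66 and 0.77. The subunits of phosphofructokinase parted. Liver-type Pfkl read 460.4, 397 and 1165 and platelet-type Pfkp 244.5, 237.5 and 680, with ratios of 1.34 and 1.31, whereas muscle-type Pfkm read 337, 282 and 356, a ratio of 0.13. Aldolase A (Aldoa) read 1996, 1879 and 4570.3, a ratio of 1.07. Of its 5 probe sets, 4 were past 1.5-fold higher and 1 was at -0.56. Further down the pathway Tpi1 stood at 0.89, Pgk1 at 0.30, Pgam1 at 0.07, Pkm at 0.30 and Ldha, which turns pyruvate into lactate, at 0.85. Ldha went from 3549.6 to 7401, among the brightest signals of the list. The monocarboxylate transporter Slc16a1 stood at 0.72. Pfkfb4, which makes or removes the phosphofructokinase activator, was the only member lower at 1.5-fold, at -0.88 with signals of 177, 270.5 and 169.8.

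At the branch to the mitochondrion and to glycogen, 4 of 14 genes were higher at 2-fold and none was lower. Of the 4, 3 were past the limit on the siENG array only, Pdk1, Gys1 and Gbe1, and so had to be higher to be kept. Pdk1, a kinase that shuts off pyruvate dehydrogenase, had the largest ratio of any gene read by several probe sets. It read 49.2, 34.8 and 656, and the second probe set 38, 30 and 451. Both control arrays were dim and the siENG array stood far above them, and the 4 Pdk1 probe sets gave 3.16 to 4.86. The sister kinases did not follow. Pdk3 read 441, 459.8 and 613 and stood at 0.20, Pdk4 read 769, 1059 and 923 and stood at -0.41, and Pdk2 was below the limit. The enzyme subunits Pdha1 and Pdhb were at -0.29 and -0.11. For glycogen, the synthase Gys1 read 88.7, 92.7 and 361, a ratio of 1.75, the phosphoglucomutase gene Pgm1 284, 246 and 787, a ratio of 1.47, and the branching enzyme Gbe1 144, 137 and 391, a ratio of 1.30. Glycogenin (Gyg), the primer protein, stood at 0.52, and the brain-type phosphorylase Pygb, which breaks glycogen down, at 0.12. The synthase and the branching enzyme, kept through the siENG array only, were past 2-fold, and the phosphorylase was not.

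Of the other hypoxia-responsive genes, 8 of 21 past the limit were higher at 2-fold and 13 at 1.5-fold, none was lower, and the median relative log2 ratio was 0.86. Of the 8, 2 were past the limit on the siENG array only. Ero1a, an oxidase that helps to form disulfide bonds in the endoplasmic reticulum (ER), read 211, 189.7 and 1791.5, and its 3 probe sets gave 2.66 to 3.03. Ndrg1, a stress-responsive differentiation gene, read 457, 331 and 1671, and its 5 probe sets gave 1.72 to 2.43. Fam162a, a mitochondrial protein gene, read 901, 942 and 4211, and its 2 probe sets gave 1.95 and 2.02. In Ero1a and Fam162a the siCont arrays were close to each other, in Ndrg1 the vehicle array was above siCont BMP-2, and in all 3 genes the siENG array stood well above both. Hilpda, which promotes lipid storage, stood at 1.71, Narf at 1.31, and the Myc antagonist Mxi1 at 1.03. Higd1a stood at 1.41 with the brightest probe set and 0.55 with the second, so that its size is disputed and its direction is not. Ddit4, an inhibitor of mTORC1 signalling, read 1452, 943 and 2432. Its ratio was 1.16 against siCont BMP-2, while the vehicle array lay between the other 2. The histone demethylase Kdm3a and the repressor Bhlhe40 were just short of 2-fold, at 0.999 and 0.98. Bhlhe40 read 329, 671 and 1533, in steps from vehicle to BMP-2 to siENG. Vegfa, the main angiogenic ligand, was at 0.45 with signals of 182.5, 227 and 359, and Edn1 at -0.16. Car9, a common marker of hypoxia in tumour cells, was at or near background at 20.3, 22 and 23.8.

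Of 14 genes of mitophagy and autophagy, 2 were higher at 2-fold, and the list median was 0.11. Bnip3, a receptor on the outer mitochondrial membrane that directs mitochondria to autophagosomes, read 595, 450.3 and 3341.5, a ratio of 2.68 from its single probe set. The general autophagy genes Becn1 at -0.34, Atg5 at 0.06, Sqstm1 at 0.04 and Map1lc3b at -0.02 were all under 1.5-fold. Pink1, a kinase that marks damaged mitochondria, stood at 0.68 and 0.52. Atg7 was higher by 1.11 with the brightest of 3 probe sets, but the second gave 0.20 and a further one -0.68. Among 16 genes of collagen hydroxylation and crosslinking, the prolyl hydroxylase subunit P4ha1 read 424, 376 and 1523 and was higher by 1.81. Its sisters were less so, P4ha2 at 0.61, with P4ha3 below the limit, and the lysyl hydroxylases split likewise, with Plod2 at 0.76, Plod1 at -0.16 and Plod3 at -0.20. Bmp1, which trims procollagen, stood at -0.78 and -0.41. The lysyl oxidase gene Loxl1 was lower, as described with the matrix genes.

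Promoter sequences were read from RefSeq on GRCm38.p6 for the genes at 2-fold or more, and the 250 bases before the transcription start were searched on both strands for the core bound by HIF, ACGTG or GCGTG. For 22 of the 24 agreed higher genes, 28 promoters were found, and 23 of them, or 82.1%, held a core. The share was 43.9% of 41 promoters of agreed lower genes, 59.4% of 7550 promoters of genes past the limit and 38.6% of all 32851 promoters. Over all 67 higher genes, agreed or not, it was 63.9%. The stricter ACGTG was in 50% of the agreed higher promoters, 41.7% of all higher promoters, 17.1% of the agreed lower and 23.3% of those of genes past the limit. The median GC content was 64.4% in the agreed higher promoters and 60.8% in those of genes past the limit. A match is a string in a window and not a bound site, and the part of base composition in these shares was not tested. The 250 bases upstream of 5 of the higher genes follow, 5′ to 3′ on the gene's strand. ACGTG or GCGTG or its reverse complement is in capitals. The 5 genes were picked and not taken strictly by rank. Maff at 2.72, Bst2 at 2.67 and Ndrg1 at 2.13 had larger relative log2 ratios than Fam162a at 1.95. The Bst2 promoter, printed further below, holds no such string. For Pdk1 the first of 2 promoters is printed. The strings lie singly in Pdk1 and in clusters in Bnip3 and Fam162a, with 5 and 6 matches.
Ankrd37, chr8:45999851-46000100, minus strand: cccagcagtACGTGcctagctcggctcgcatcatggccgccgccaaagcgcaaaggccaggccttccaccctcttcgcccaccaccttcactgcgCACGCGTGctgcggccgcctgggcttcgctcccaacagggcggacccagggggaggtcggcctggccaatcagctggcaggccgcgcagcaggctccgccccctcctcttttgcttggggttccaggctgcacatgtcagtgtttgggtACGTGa
Pdk1, chr2:71872974-71873223, plus strand: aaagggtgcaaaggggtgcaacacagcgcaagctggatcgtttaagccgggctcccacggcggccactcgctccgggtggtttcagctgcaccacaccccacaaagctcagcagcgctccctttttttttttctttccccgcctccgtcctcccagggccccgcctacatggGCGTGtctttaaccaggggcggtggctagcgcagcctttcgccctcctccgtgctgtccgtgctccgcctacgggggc
Ero1a, chr14:45318573-45318822, minus strand: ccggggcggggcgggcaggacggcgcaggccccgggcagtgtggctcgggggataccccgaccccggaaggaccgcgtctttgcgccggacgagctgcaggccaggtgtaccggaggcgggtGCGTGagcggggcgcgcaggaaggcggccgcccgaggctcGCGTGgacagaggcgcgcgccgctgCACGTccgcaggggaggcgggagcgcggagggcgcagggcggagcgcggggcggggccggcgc
Bnip3, chr7:138909507-138909756, minus strand: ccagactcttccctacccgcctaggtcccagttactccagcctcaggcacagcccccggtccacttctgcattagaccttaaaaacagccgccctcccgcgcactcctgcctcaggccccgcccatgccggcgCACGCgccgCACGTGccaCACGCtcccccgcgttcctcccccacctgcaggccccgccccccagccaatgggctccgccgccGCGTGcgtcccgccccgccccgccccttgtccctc
Fam162a, chr16:36071562-36071811, minus strand: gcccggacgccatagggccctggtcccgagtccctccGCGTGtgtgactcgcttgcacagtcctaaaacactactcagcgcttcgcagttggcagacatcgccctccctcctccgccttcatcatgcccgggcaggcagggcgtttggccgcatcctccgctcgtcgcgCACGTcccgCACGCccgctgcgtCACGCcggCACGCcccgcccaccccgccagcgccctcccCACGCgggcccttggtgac

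Interferon-stimulated genes formed the next group. Type I interferon acts through its receptor and transcription factors such as Irf9 on antiviral genes. Of 23 such genes past the limit, 9 were higher at 2-fold and 12 at 1.5-fold, and the median was 0.67, or 0.46 under the alternative that lowered it most. Of the 9, 7 were past the limit on the siENG array only, Bst2 and Ifitm3 being the others. Bst2, a membrane tether of budding viruses, read 328, 191 and 1404, and its relative log2 ratio of 2.67 came from a single probe set. The siCont BMP-2 signal was below that of vehicle, and the siENG signal was well above both. The oligoadenylate synthetase family members Oasl2 and Oas1a read 34.9, 43.6 and 163 and 61.9, 52.6 and 169. Xaf1, a pro-apoptotic gene, stood at 1.499 and its second probe set at 0.71. The secreted lectin-binding protein Lgals3bp stood at 1.53 and Parp9 at 1.34. Irf7, the factor that amplifies the response, read 90.2, 68.6 and 190.3, and the RNA sensor Ifih1 78.9, 66.3 and 172, with ratios of 1.26 and 1.16. Ifitm3, which blocks viral entry, was the brightest member, at 1894, 1645.5 and 4504 and a ratio of 1.24.

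The response was uneven. Irf9 stood at 0.97 with signals of 136, 106 and 240.1, Irf1 at 0.23, Ifit2 at 0.08, Eif2ak2, the kinase activated by double-stranded RNA, at 0.13, and the GTPase genes Irgm1 and Igtp at 0.27 and 0.04. Several classical members were too dim to be counted. Mx1 read 15.3, 5.7 and 22.7, Oas2 23.7, 12.1 and 57.1, Ifit3 65.4, 46.8 and 116 and Ifit1 58.7, 47.8 and 64.5. By deposited signals all 4 were brightest with siENG, Ifit1 by a small margin, but so were 74.1% of all 7128 genes on that brighter array. Mx1 was near the Bacillus range. Only Xaf1 among the 9 genes past 2-fold had a second probe set that agreed, and that one was dim, at 24.9, 16.3 and 30.8. The other 8 rest on 1 probe set past 23 each. Rtp4 stood at 0.94 and its second probe set at -0.44. Genes of class I antigen presentation differed by less. Of 7 past the limit, none was at 2-fold and 3 were higher at 1.5-fold, with a median of 0.57. The proteasome activator subunit Psme1 stood at 0.76, the immunoproteasome subunit Psmb10 at 0.73, the heavy chains H2-D1 and H2-K1 at 0.69 and 0.57, and the light chain B2m at 0.33. Leukocytes also express such genes. The signals of the 12 leukocyte markers summed to 284, 362 and 496 on the 3 arrays, most of it from S100a8 and Cd68, and 5 of them, Ptprc, Cd3e and Cd79a included, never exceeded the Bacillus range. The part of this sum in the interferon genes was not tested.

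The core bound by interferon regulatory factors, GAAA and a further GAAA with any 2 bases between them, on either strand, was in 4 of 25 promoters of the interferon list past the limit, or 16%, and in 2.53% of promoters of genes past the limit and 2.98% of all promoters. None of the 28 agreed higher promoters held it. Over all 67 higher genes, agreed or not, 2 of 72 promoters held it, or 2.78%, close to the share for genes past the limit. These 2 promoters, of Bst2 and Oas1a, carry the string in 2 overlapping copies, in capitals. They were picked for holding the string and not by rank. Oasl2 at 1.69, Lgals3bp at 1.53 and Xaf1 at 1.499 had larger relative log2 ratios than Oas1a at 1.47.
Bst2, chr8:71537473-71537722, minus strand: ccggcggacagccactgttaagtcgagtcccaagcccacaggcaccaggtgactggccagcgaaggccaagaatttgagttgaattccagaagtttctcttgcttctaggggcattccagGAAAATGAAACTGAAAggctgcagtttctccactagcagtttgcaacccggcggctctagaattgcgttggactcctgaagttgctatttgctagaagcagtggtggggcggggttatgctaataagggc
Oas1a, chr5:120907526-120907775, minus strand: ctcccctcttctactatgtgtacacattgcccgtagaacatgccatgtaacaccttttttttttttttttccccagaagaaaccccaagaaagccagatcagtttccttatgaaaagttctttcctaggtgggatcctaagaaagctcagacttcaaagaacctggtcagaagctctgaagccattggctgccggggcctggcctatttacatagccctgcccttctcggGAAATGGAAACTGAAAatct

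Atf4 is the factor made when translation is slowed by phosphorylation of eIF2α, and it raises amino acid enzymes, tRNA synthetases and Ddit3. Of 27 Atf4 targets past the limit, 2 were higher at 2-fold, 5 at 1.5-fold and none lower, with a median of 0.35. Ddit3, a pro-apoptotic factor, read 529.7, 535 and 1468, with ratios of 1.25 and 0.70 from 2 probe sets, and Cth, which makes cysteine, 235, 212 and 612, a ratio of 1.32. Atf4 itself stood at 0.46, Asns at 0.47, Psat1 at 0.45, and the tRNA synthetase genes Eprs, Sars and Nars at 0.57, 0.46 and 0.42. Of 21 genes of ER folding, Herpud1, which helps to clear misfolded proteins, was the only one at 2-fold, at 357, 372 and 940.1 and 1.13. The median was 0.22. Dnajb9, a target of Xbp1, was lower at -0.66, and the chaperone Hspa5 stood at 0.25 and Xbp1 at 0.31.

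Among immediate early and AP-1 genes, which respond within minutes to many stimuli, 3 of 16 were higher at 2-fold and 1 was lower. Maff, a small Maf factor, read 28, 24.4 and 185, a ratio of 2.72 from a single probe set. Klf2 read 144, 64 and 167. Its ratio was 1.17, but the vehicle and siENG arrays were nearly level and the siCont BMP-2 array stood low. Ier3 stood at 1.03 and Egr1 at 0.86, while Fos, Jun and Myc were at 0.07, -0.04 and 0.01. Junb was at -0.85, and Fosl2 at -1.13 with a second probe set at 0.23.

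Outside the lists, 30 further genes were higher at 2-fold. Ifi27l2a, an interferon-inducible gene, read 145, 132 and 458, a ratio of 1.59. The non-coding RNA gene Zfas1 read 648, 602 and 2174, a ratio of 1.64. Mgp, an inhibitor of calcification that binds BMPs, read 256, 206 and 631, a ratio of 1.404 from a single probe set. The circadian repressor Ciart stood at 1.59, the kinase gene Nek6 at 1.59 and 0.82 with 2 probe sets, and Sap30, part of a histone deacetylase complex, at 1.18. Selenbp1 and Pim3 had smaller differences from vehicle. Selenbp1 read 118, 49.1 and 181 and Pim3 655, 386 and 1085, so that the vehicle array lay between the other 2 in both. Against vehicle, centred in the same way, 9 of the 67 higher genes were under 1.5-fold. They include Selenbp1, Pim3, Klf2 and Ddit4. The ubiquitin ligase gene Rnf217 stood at 1.16, with 3 of its 4 probe sets past 1.5-fold, Rlf at 1.19 and 0.72, and Fam114a2 at 1.05 and 1.01. The mediator kinase gene Cdk8 read 355, 383 and 910.1, a ratio of 1.04, Spg21 387, 347 and 995, a ratio of 1.31, and Arrdc3, an arrestin relative, 86.2, 54.6 and 160.2, a ratio of 1.34. The last 3 rest on 1 probe set each. Pik3ip1, an inhibitor of PI3-kinase, stood at 1.06, and its vehicle signal of 159 lay between 89.9 with siCont BMP-2 and 216 with siENG.

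The lower genes were led by Npnt. It encodes nephronectin, a matrix ligand of integrin α8β1 that osteoblast precursors secrete. The brightest probe set read 83.8, 264 and 45.7 and the second 54.6, 138 and 18.8. The siENG signal was below even the vehicle array with both probe sets, and the relative log2 ratio was -2.74 with the first and -3.08 with the second, while a dimmer one gave -1.04. Of 17 matrix glycoproteins and proteoglycans past the limit, Npnt was the only one past 2-fold, Thbs2 was higher at 1.5-fold with 0.66, and 3 more were lower at 1.5-fold, Thbs1 at -0.95, Gpc6 at -0.77 and Sdc1 at -0.68. Thbs1, thrombospondin 1, read 2254, 2449 and 1468, with a second probe set at -1.15. The list median was -0.28. Fibronectin (Fn1) and Sparc were at -0.14 and -0.09, and periostin (Postn), typical of the periodontal ligament, at -0.46 with signals of 4428, 5491 and 4614.

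Among 16 collagen chains, Col12a1, a fibril-associated collagen of ligaments and tendons, was the only one lower at 1.5-fold. It read 1838, 1900.4 and 1202, with ratios of -0.87 and -0.91 from 2 probe sets. The main fibrillar chains Col1a1, Col1a2 and Col3a1 stood at 0.20, -0.14 and 0.15. The median over the chains was -0.15, and 0.06 on signals as deposited. Of the crosslinking genes Loxl1 read 349, 427 and 228, at -1.11 with the brightest probe set, and Lox read 6716, 6933 and 6042, at -0.41. The peroxidase Pxdn, which crosslinks collagen IV, read 1860, 1664 and 613, a ratio of -1.65 from a single probe set. Sulf2, which trims heparan sulfate, read 554, 705 and 322.5, at -1.34 and -2.05, with a further probe set at -0.35. With the brightest probe set of each of these the siENG array was the lowest of the 3. The siENG signal of the second Loxl1 probe set was within the Bacillus range, so no ratio is given. Of the proteases, Adamts4 stood at -0.98 and Adamts1 at -0.64, while Mmp14 was at -0.49 and Timp1, Timp2 and Timp3 were at 0.12, 0.20 and -0.05.

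In the prostaglandin list 2 of 4 genes past the limit were lower at 2-fold, and in the cytokine list 3 of 11. The share over all genes kept was 0.8%. Il6 and Cxcl1 were past the limit on the siCont BMP-2 array only and so had to be lower to be kept. Ptgs2 encodes the inducible cyclooxygenase, the first committed step to prostaglandins, and Ptger4 a receptor for prostaglandin E2. Ptgs2 read 316, 679 and 194 with the brightest probe set and 169.5, 377.5 and 139 with the second, and Ptger4 449, 685 and 307. Both were highest with BMP-2 in control cells and lowest with siENG, and their ratios were -2.02 and -1.37. The other 2 members of the prostaglandin list past the limit were the phospholipase Pla2g4a at -0.51 and the exporter Abcc4 at -0.14. Among the cytokine genes 1 was higher at 2-fold, and the median was -0.42. On signals as deposited 2 were lower. Il6 read 199, 197 and 56.7, a ratio of -2.01 from a single probe set. The chemokine Cxcl1 read 341, 318 and 149, with a ratio of -1.31, a second probe set at -1.22 and a further one at -0.44. Osmr, a receptor of the Il6 family, read 442.5, 421 and 223, a ratio of -1.12. In these 3 genes the siCont arrays were level and the siENG array lay below both. Cxcl12 stood at -0.79, Ccl2 at -0.42, the shared receptor subunit Il6st at -0.33 and Nfkbia, a target and brake of NF-κB, at -0.18. Tnfaip3, another such brake, was at 0.53. The acute-phase gene Lcn2, an iron-binding lipocalin, read 617, 429.9 and 283, a ratio of -0.82. Cebpd accounts for the 1 higher gene, at 1.12, but its second probe set gave -0.48 at signals under 25.

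Gap junction protein Gja1, connexin 43, read 1373, 1974 and 752. The siCont BMP-2 signal was above vehicle and the siENG signal below both, and all 6 of its probe sets were past 1.5-fold, from -2.09 to -1.18. The connexin gene Gjc1 stood at -0.43 and N-cadherin (Cdh2) at -0.04. Cd24a, a surface glycoprotein of progenitor cells, read 816, 1345 and 567, and its 3 probe sets gave -1.46 to -1.37. The sodium pump subunit Atp1b1 read 1366, 1116 and 436, with ratios of -1.57 and -1.62. Ralb, a small GTPase, and Map7d2 stood at -1.49 and -1.86, both agreed.

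**Figure D2:**
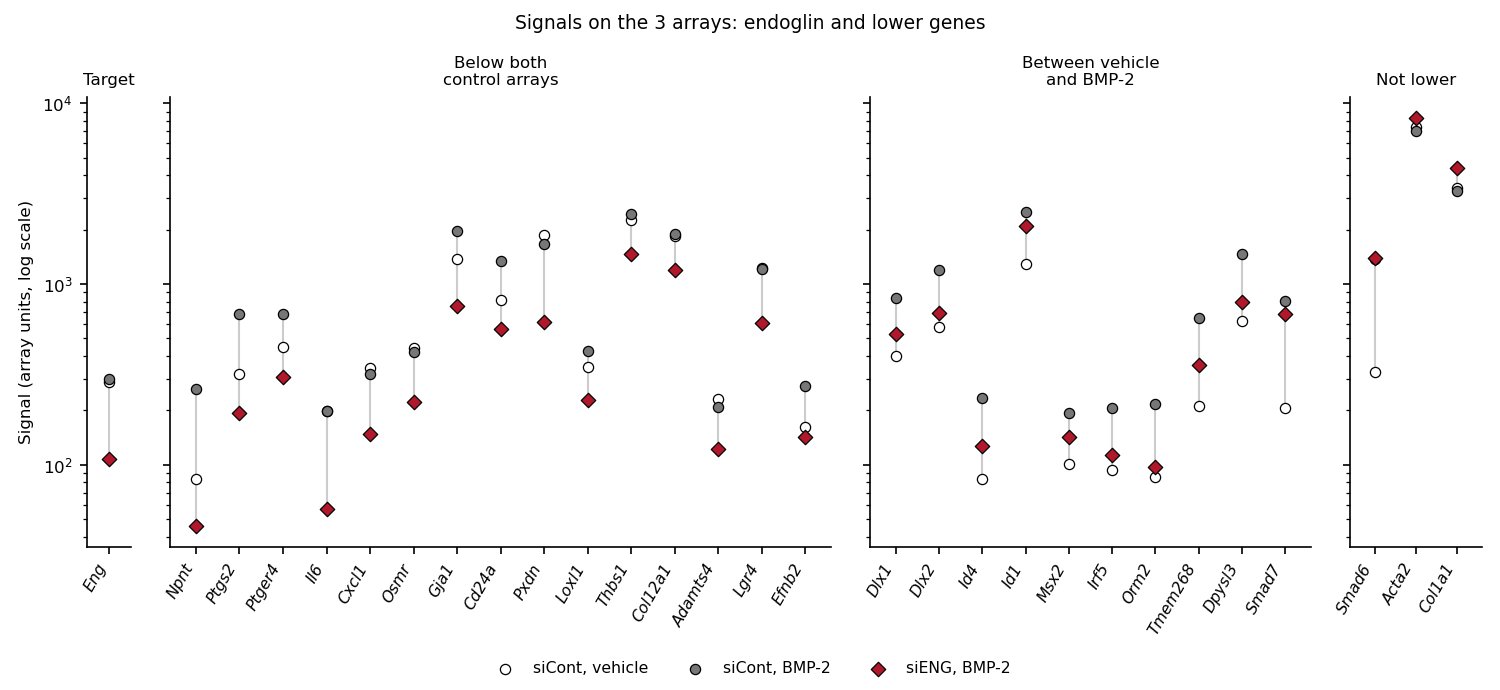
Signal in array units (vertical axis, log scale) of Eng, 15 genes whose siENG signal lay below both siCont arrays, 10 genes whose siENG signal lay between vehicle and BMP-2, and 3 genes whose siENG signal was not lower, with symbols as in the plot of raised genes and 1 array per condition. Npnt, Il6 and Gja1 show the diamond well under both circles, whereas for Id4, Dlx2 and Orm2 it lies close to the white circle of vehicle.

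Of 16 BMP-responsive genes past the limit, 2 were lower at 2-fold and 7 at 1.5-fold, none was higher, and the median was -0.51. On signals as deposited none was lower at 2-fold, and the median was -0.30. The shares over all genes kept were 0.8% lower at 2-fold and 4.43% at 1.5-fold. Of the 16 genes, 3 were past the limit on the siCont BMP-2 array only, Id4 among them, and had to be lower to be kept. Id4, an inhibitor of helix-loop-helix factors, read 83.6, 233 and 127, and its 3 probe sets gave -1.09, -1.25 and -0.49. The homeobox gene Dlx2 read 579, 1196 and 688 and its neighbour Dlx1 399.7, 835.5 and 529, with ratios of -1.01 and -0.87. In these 3 genes the siENG signal lay between BMP-2 and vehicle and nearer to vehicle. Msx2 at -0.64 and Unc5b at -0.75 were also past 1.5-fold. Id1, Id2 and Id3 were under it, at -0.46, -0.28 and -0.39. Id1 read 1296, 2501 and 2105, highest with siCont and BMP-2. Of the inhibitory Smads, Smad6 read 325, 1381.5 and 1388 and Smad7 207, 806 and 685, with ratios of -0.20 and -0.44. Hes1 and Atoh8 were at -0.03 and -0.01.

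Of the receptors and Smads, Eng was the only one at 2-fold among 18 past the limit, and the list median was -0.20, or 0.01 on signals as deposited. The type I receptor Tgfbr1 stood at -0.59 with signals of 318, 419 and 321, and the ubiquitin ligase Smurf2 at -0.77. Bmpr1a, Bmpr2 and Tgfbr2 were at -0.32, -0.33 and -0.37, the co-receptor Tgfbr3 at 0.57, and Acvrl1, the receptor with which endoglin works in endothelium, was near background at 12.1, 15.6 and 18. Of the ligands and antagonists, Tgfb3 read 155, 323 and 205, a ratio of -0.87, and follistatin (Fst) 414, 852 and 649.5, a ratio of -0.60. TGF-β-responsive genes had a median of -0.09, or 0.12 on signals as deposited, with Junb, Snai1 and Skil lower at 1.5-fold and Tagln higher, at 0.61. Ccn2 and Pmepa1 were both at -0.36.

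Of the 57 lower genes, 11 were under 1.5-fold against vehicle when centred in the same way, beside 46 that were lower than vehicle by at least that much. Besides Id4 and Dlx2, these include Irf5, which read 94, 206 and 114, Orm2, an acute-phase protein gene, at 85.9, 218 and 97.8, Dpysl3 at 628, 1468 and 797 and Tmem268 at 210.5, 648 and 358. With the brightest probe set of each of these, BMP-2 was at least 2-fold above vehicle in control cells by the deposited signals, and siENG was near vehicle or between. The second Irf5 probe set read 47.3, 45 and 28.3, with no rise from vehicle to BMP-2 and siENG below both. St6galnac4, a sialyltransferase gene, read 398, 655 and 336 and lay slightly below vehicle. The siCont BMP-2 array enters both the step from vehicle and the step to siENG, so the 2 are not independent readings. Npnt, Id4, Irf5, St6galnac4 and Tmem268 are members of a list that the study chose on these same arrays, so their shared direction here is no independent evidence. For Id4 the study also reported real-time PCR, in which knockdown prevented the induction by BMP-2. By Western blotting it reported endoglin-dependent induction of the ID4 protein.

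Of 13 guidance genes, which steer axons and vessels, 1 was lower at 2-fold and 5 at 1.5-fold, none was higher, and the median was -0.54. Efnb2, the transmembrane ephrin ligand, read 163, 271 and 142, with ratios of -1.15 and -0.85, and the semaphorin receptor Plxnd1 read 645, 1041 and 614, at -0.97. Of 10 Wnt pathway genes past the limit, Lgr4, a receptor for R-spondins, read 1224, 1212 and 610, a ratio of -1.20 from a single probe set, and the median was -0.47. Notum stood at -0.98, Fzd7 at -0.82 and Wnt4 at -0.70, while β-catenin (Ctnnb1) was at 0.11. Of 8 Notch genes the ligand Jag1 at -0.77 and the modifier Lfng at -0.77 were lower at 1.5-fold and the receptor Notch1 was at 0.04. Notch2 stood at -0.55. Among 20 glycan transferases, 4 were lower at 1.5-fold and none higher, with a median of -0.37. On signals as deposited no gene of the guidance, Wnt or glycan list was lower at 2-fold. The receptor Igf1r stood at -0.82 and the binding protein Igfbp7 at 0.77. The transcriptional regulators Tle4 and Hipk2 stood at -1.69 and -1.20. All 7 Hipk2 probe sets past 23 were below 0, and 4 were past 1.5-fold.

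Most of the lower genes, 39 of 57, belonged to no list, and many of these were read by 2 probe sets or more. Tmem123 stood at -1.22 and -1.02, Selenoi, an enzyme of phospholipid synthesis, at -1.19 and -1.33, and Mab21l1 at -1.15 and -1.37. The tumour suppressor Nf2, a regulator of the Hippo pathway, read 633, 539 and 296, with ratios of -1.08 and -0.99. Rab31, a small GTPase of endosomal transport, read 1143, 1262 and 717.5, with ratios of -1.02 and -0.94, and the phosphodiesterase Pde4b, which breaks down cyclic AMP, 177, 164 and 91.8, with ratios of -1.05 and -0.90. In all 3 the siENG array was the lowest and the siCont arrays differed little. Bpnt2, a Golgi phosphatase needed for sulfation, stood at -1.07, Septin10 at -1.03, Wbp1l at -1.18 and Fbxw8 at -1.04, all agreed. Ubqln2, Metap2 and Slc5a3 were less even, at -1.22, -1.05 and -1.07 with the first probe set and -0.69, -0.72 and -0.69 with the second. Lower with 1 probe set were the calpain subunit Capns1 at -1.06, the potassium channel subunit Kcnj11 at -1.04, the imprinted zinc finger gene Plagl1 at -1.19 and the organic ion transporter relative Slc22a23 at -1.11. Slc22a23 read 261.5, 153.5 and 82.1, in downward steps from vehicle to BMP-2 to siENG.

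Large sets of housekeeping genes lay near the bulk. None of 69 respiratory chain genes was past 2-fold and 2 were past 1.5-fold, with a median of 0.07, and none of 39 cytosolic ribosomal protein genes was past 1.5-fold, with a median of 0.04. Of all genes kept only 0.94% were higher and 0.8% lower at 2-fold, so a list here with no such gene is near that share. At 1.5-fold the shares were 4.83% and 4.43%. Among 36 cell cycle genes none was at 2-fold, and the median was -0.09, or 0.12 on signals as deposited. The G1 cyclin genes Ccnd1 and Ccnd2 were higher at 0.76 and 0.81, as was the inhibitor Cdkn1b at 0.71, while Ccne1 was lower at -0.89, all with an agreeing second probe set. Mki67 was at -0.18 and Top2a at -0.30. Contractile genes had a median of 0.04, with Acta2 at 0.04 and cardiac troponin T (Tnnt2) highest, at 48.9, 106.5 and 238 and 0.95. Among lipid genes the brain fatty acid carrier Fabp7 read 221, 1468 and 1018, a ratio of -0.74, and the lipid droplet gene Plin2 stood at 0.77. The 2 respiratory chain genes past 1.5-fold were Uqcrc2 of complex III, at 0.67 and 0.88, and Ndufv3 of complex I, at 0.60. Cholesterol synthesis, lysosomal, p53 and Nrf2 genes had no member at 2-fold, and medians of 0.16, 0.17, 0.27 and 0.06. Within them the mevalonate enzyme Mvd, at 0.83 and 0.87, was higher and the sterol carrier Stard4, at -0.82 and -0.62, lower. The Nrf2 targets Gclm, of glutathione synthesis, and Txnrd1, thioredoxin reductase, stood at -0.63 and -0.60. VEGF family, ERK feedback and Hedgehog lists had no member at 2-fold either. The neuropilins Nrp1 and Nrp2, receptors shared by VEGF and semaphorins, stood at -0.56 and -0.71, and Spred1 and Dusp5, brakes on ERK signalling, at 0.64 and 0.61. Of the osteoblast genes only Ank was past the limit, at -0.15, and Sp7 and Alpl were dim at 38.4, 56.5 and 26.3 and 20.1, 44.8 and 35.2. The tendon factor Scx was dim as well, at 27.3, 33.6 and 42.3.

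In 10 genes past 2-fold the second probe set did not agree. Tank stood at -1.27 and 0.25, Tfdp2 at -1.23 and -0.09, Ddr1 at -1.17 and -0.36, and Chchd5 at 1.24 and -0.04, brightest first. All 7 Ddr1 probe sets past 23 were nonetheless below 0, and 4 were past 1.5-fold. Fosl2, Cebpd, Atg7 and Higd1a are given above, and Tctn3 and Cryz were higher with both probe sets but under 1.5-fold with the second, at 0.24 and 0.40. Of all 67 higher genes, 37 belonged to a list.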

How the data were processed

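RNA of 3 PDL-L2 cultures was read on 3 Affymetrix Mouse Genome 430 2.0 arrays, 1 per group as labelled. The authors deposited linear signal intensities, given for every probe set of an array. GCOS 1.4 is named in the submitters' processing notes. Scaling and background settings were not stated in the sources read. Signals of 0 were set to 0.1. Log2 ratios of siENG over siCont with BMP-2 were centred on the median over non-control probe sets with a higher signal of at least 23, and genes were reported from a higher signal at the 75th percentile of all signals. Of 45101 probe sets, 64 were controls, 34958 had 1 gene symbol, 932 several and 9211 none, and only the first kind was named. Gene IDs of 34754 were found in the RefSeq table of GRCm38.p6, which updated symbols. The brightest probe set by mean log2 stood for a gene. Genes named were Eng, the 15 largest and 15 smallest ratios among agreed genes, 5 and 5 among genes with 1 probe set, 3 and 3 among those that did not agree, up to 5 of each list, defining genes and genes the paper names, and further genes were chosen after their values were seen. Precision is limited by 1 array per group. Robust SDs came from 20 bins of signal. The members and lists were chosen with earlier results of these data known. List genes without a probe set of their own symbol are not analysed here. Calculations used pandas 2.3.3, numpy 2.4.6 and matplotlib 3.10.9 under Python 3.11.15, and were tested on simulated data. Alternatives changed the centring, limit, probe set rule, floor and required agreement. Promoters came from the same RefSeq build.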

Additional observations from a re-analysis of the deposited data

How the results depend on the processing

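On signals as deposited, 125 genes were higher and 20 lower at 2-fold, with 39 and 13 agreed. With a signal limit of 23, there were 252 higher and 293 lower genes, and 39 agreed higher. Read from the second brightest probe set, 22 were higher and 30 lower. Only 19 of the 67 higher and 26 of the 57 lower genes could be read this way past the limit, and 13 and 17 of them were called again. The mean over probe sets kept 55 of 67 and 40 of 57. With agreement required at 2-fold, 15 higher genes agreed. Under the second brightest probe set 4 genes turned direction, Cebpd to -0.48, Chchd5 to -0.043, Fosl2 to 0.23 and Tank to 0.25. The cause was not tested. Other centrings shared 62 to 67 of the higher and 55 to 57 of the lower genes with the main setting, except that signals as deposited shared 20 of the lower. Eng stayed between -1.70 and -1.46 under 12 alternatives. No paired analysis was possible because each group held 1 array. With 1 array a group, differences between cultures and arrays cannot be told apart from the knockdown.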
